A study of Rattus norvegicus with 4 samples.

Results

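The protein phosphatase subunits described here were the single-gene probe sets whose annotated symbol starts with Ppp1 to Ppp6, Ppm1, Ptpn, Ptpr or Ptp4. The rule gave 101 of the 8799 probe sets of the array, for 62 genes. Of these, 47 probe sets (31 genes) read subunits of serine/threonine phosphatases and 54 (31 genes) read tyrosine phosphatases. Their signals came from 4 Affymetrix arrays, with 2 arrays for G and 2 for MAT-LyLu. These cell lines derive from the Dunning R3327 rat prostatic tumour. The submitters describe G as not metastasising and MAT-LyLu as metastasising at a high rate, and G serves as the control. For neither line is a treatment, passage, age or host named. Arrays of a line are called duplicates with no mention of separate cultures, so p-values here reflect only the spread between arrays, which may be technical.

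Protein phosphatases remove the phosphate groups that kinases add. The serine/threonine enzymes of the PPP family, which are PP1, PP2A, calcineurin, PP4, PP5 and PP6, mostly work as a small set of catalytic subunits combined with many regulatory subunits that choose the substrate, whereas the metal-dependent PPM enzymes act as single chains. The classical tyrosine phosphatases share a catalytic cysteine and divide into cytosolic enzymes, with symbols starting with Ptpn, and transmembrane receptors, with symbols starting with Ptpr. The PRL enzymes, with symbols starting with Ptp4, are small and carry a lipid anchor.

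Array medians ran from 2998 to 3156 signal units. A background level was set for each array at the 95th percentile of its 23 control probe sets from other organisms, and it ran from 1891 to 2311. All 4 arrays had 33.8% to 40.4% of the rat probe sets under it. Among the phosphatase probe sets, 22 of 101 were under it on all 4 arrays (21.8%, against 30.1% of all rat probe sets). For the markers of the labelled tissue, the 5 probe sets of the prostate genes Pbsn and Msmb were under background on all 4 arrays. In the list of mesenchymal markers 5 of 6 genes were lower in MAT-LyLu on at least 1 probe set. The summed signal of the list was 289236 to 303594 in G and 83034 to 83549 in MAT-LyLu. Acta2 was lower on rc_AA900769_s_at only, while X06801cds_f_at and X06801cds_i_at did not pass (log2 differences -0.17 and 0.17). Of 6 epithelial genes Krt8 was higher. These line differences run alongside every result below, and their part in the phosphatase values was not tested. In RNA from whole cultures, fewer cells with a transcript and less of it per cell cannot be told apart. Probe sets whose name ends in _s_at can read related transcripts. The number of arrays limits the precision.

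Differences were tested with limma on log2(signal + 16) over the 6555 probe sets left after the 25% with the lowest mean were set aside, and a probe set passed at a Benjamini-Hochberg adjusted p under 0.05 over all of them. Log2 differences are MAT-LyLu minus G on this scale, which understates the change of dim probe sets, and are written as value ± standard error (SE) of the fit. Of the 101 phosphatase probe sets 85 were tested, reading 55 of the 62 genes. In MAT-LyLu 20 were higher and 16 were lower, while 49 did not pass. Over the whole array 34.1% of the tested probe sets passed, 13.9% higher and 20.3% lower. The serine/threonine subunits had 9 higher and 10 lower of 42 tested (45.2% passing), and the tyrosine phosphatases had 11 higher and 6 lower of 43 (39.5%). The share higher was above that of the whole array in both classes, at 21.4% and 25.6%. The share lower lay on either side of it, at 23.8% and 14.0%. The median log2 difference was 0.056 in the serine/threonine class and 0.089 in the tyrosine class, against -0.028 over all tested probe sets. These are descriptions, and no test between the classes was made. The serine/threonine split rests on the scaling of the arrays. With quantile normalization, median scaling, cyclic loess and a common trimmed mean, 15, 13, 15 and 14 of its probe sets were higher and 10, 9, 10 and 9 lower. Over all probe sets these scalings gave 1142, 1080, 1065 and 1152 higher and 1182, 1194, 1233 and 1120 lower, in place of 908 and 1330.

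**Figure D1:**
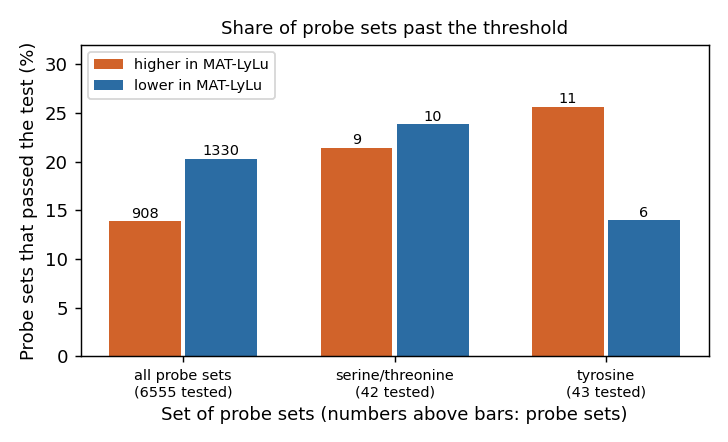
Share of tested probe sets that passed the limma test (vertical axis, percent), higher (orange) or lower (blue) in MAT-LyLu, for all 6555 tested probe sets and for the 42 serine/threonine and 43 tyrosine probe sets. The numbers above the bars are probe sets. The tyrosine class had 11 higher and 6 lower, whereas the serine/threonine class had 9 and 10.

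The arrays of the lines did not overlap for 66 of the 85 tested phosphatase probe sets (77.6%, against 67.7% of all tested), the 36 that passed among them. Over the 85 probe sets the log2 signals correlated at r = 0.991 between the G arrays and r = 0.988 between the MAT-LyLu arrays, and at 0.753 to 0.769 between the lines. These are correlations across probe sets, not across replicates. Between arrays of a line the log2 signals differed with an SD of 0.14 in G and 0.16 in MAT-LyLu. Differences of 2-fold or more that passed were found for 5 serine/threonine (11.9%) and 4 tyrosine (9.30%) probe sets, against 8.94% of all tested probe sets. Of the 36 probe sets that passed, 6 were under background on both arrays of 1 line. Their fold is a bound, written "at least", that takes the background level of an array wherever the signal was dimmer. The counts at 2-fold use the fitted difference and not this bound, also over all tested probe sets. Among the 5 serine/threonine probe sets, J05592_g_at of Ppp1r1a and rc_AI103238_at of Ppp2r2b have bounds of only 1.505-fold and 1.28-fold. The serine/threonine share is therefore not shown to exceed that of the array.

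**Figure D2:**
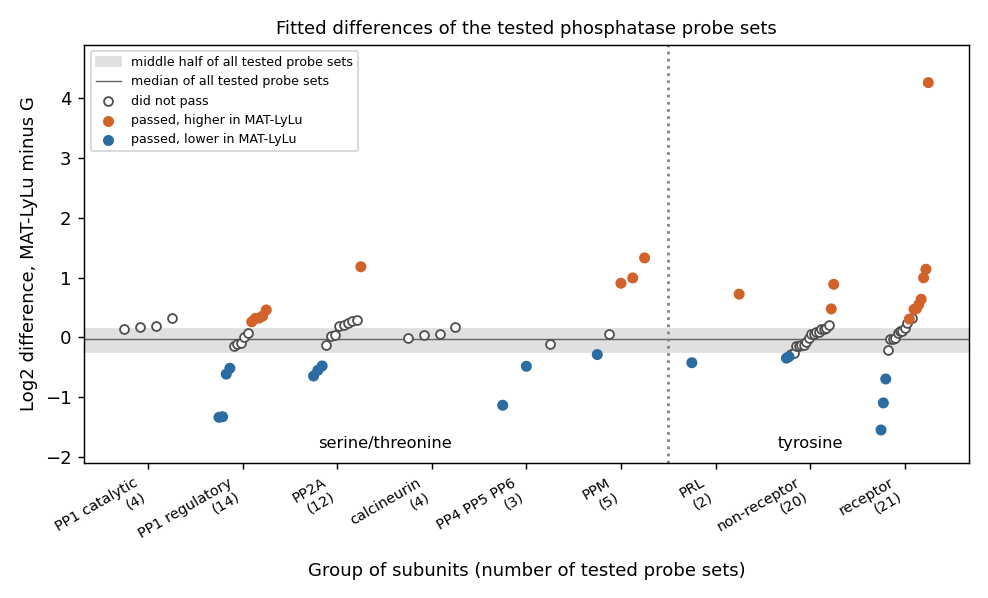
Fitted log2 difference between the lines (vertical axis, MAT-LyLu minus G) for the 85 tested phosphatase probe sets, by group of subunits, with the number tested in each group under its name. Filled points passed the test, open points did not, and the grey band and line give the middle 50% and the median of all tested probe sets. The PP1 catalytic probe sets, from 0.14 to 0.32, lie at or above the upper edge of the band at 0.14. Those of calcineurin run from -6.6e-04 to 0.18, and the receptor tyrosine phosphatases spread from -1.55 to 4.26.

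Promoter sequences are shown for the genes of the family with the largest fitted differences. These are genes whose tested probe sets all passed in 1 direction, with at least 1 of them at a fitted 2-fold or more. There were 7, of which Ppm1a, Ptprn and Ptprq were higher and Ppp6c, Ppp1r1a, Ppp1r2 and Ptpra lower in MAT-LyLu, and 5 of them had an entry in the RefSeq promoter table of GRCr8. Each line gives the 250 bases before the annotated start of the gene, 5′ to 3′ on the strand of the gene, with the GC box GGGCGG or its reverse complement in capitals.
Ppm1a, GRCr8 chr6:97178893-97179142, plus strand: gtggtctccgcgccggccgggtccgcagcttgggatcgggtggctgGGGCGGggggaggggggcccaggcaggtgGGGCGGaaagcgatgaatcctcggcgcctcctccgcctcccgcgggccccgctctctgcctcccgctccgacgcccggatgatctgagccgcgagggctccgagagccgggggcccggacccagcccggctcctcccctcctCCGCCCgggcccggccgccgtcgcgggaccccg
Ptprn, GRCr8 chr9:84204824-84205073, minus strand: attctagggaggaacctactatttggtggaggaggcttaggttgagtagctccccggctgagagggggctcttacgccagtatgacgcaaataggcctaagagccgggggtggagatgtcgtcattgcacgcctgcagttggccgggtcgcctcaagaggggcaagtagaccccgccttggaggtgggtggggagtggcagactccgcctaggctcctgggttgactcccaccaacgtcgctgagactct
Ppp6c, GRCr8 chr3:43371808-43372057, minus strand: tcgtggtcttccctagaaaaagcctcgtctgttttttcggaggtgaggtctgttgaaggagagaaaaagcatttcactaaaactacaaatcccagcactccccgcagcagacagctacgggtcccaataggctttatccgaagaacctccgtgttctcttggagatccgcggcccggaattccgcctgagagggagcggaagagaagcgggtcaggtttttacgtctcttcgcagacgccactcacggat
Ppp1r2, GRCr8 chr11:82977384-82977633, plus strand: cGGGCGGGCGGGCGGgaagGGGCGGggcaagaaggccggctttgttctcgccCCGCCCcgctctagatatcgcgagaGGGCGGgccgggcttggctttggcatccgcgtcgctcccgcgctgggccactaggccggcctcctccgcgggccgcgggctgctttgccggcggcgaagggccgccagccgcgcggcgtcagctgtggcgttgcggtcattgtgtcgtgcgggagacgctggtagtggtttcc
Ptpra, GRCr8 chr3:138103045-138103294, plus strand: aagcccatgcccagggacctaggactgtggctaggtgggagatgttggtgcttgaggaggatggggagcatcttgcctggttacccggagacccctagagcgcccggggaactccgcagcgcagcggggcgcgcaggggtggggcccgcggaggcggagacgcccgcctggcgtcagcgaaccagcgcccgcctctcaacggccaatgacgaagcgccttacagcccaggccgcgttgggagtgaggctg

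The GC box, the letters bound by Sp1-type factors, stood 3 times in the window of Ppm1a and 6 times in that of Ppp1r2, on either strand and with overlaps counted. It was not among the letters of the windows of Ptprn, Ppp6c and Ptpra. The CCAAT box was found once in Ppp6c and once in Ptpra. TATAAA, the E-box CACGTG, the CRE TGACGTCA and the AP-1 site TGANTCA were searched on both strands and not found in these 5 windows. Of the 62 phosphatase genes 55 had a promoter in the table, and 65.5% of those held a GC box, against 32.4% of all 27457 promoters of the table. The CCAAT box was in 29.1% and 34.3%, TATAAA in 7.3% and 13.1%, the E-box in 1.8% and 5.8%, the CRE in 5.5% and 1.7% and the AP-1 site in 1.8% and 6.4%. The median GC content was 66.0% in the windows of the family and 52.0% in all. The 27457 promoters were not limited to genes on the array, and no shares were computed for those genes. The 2 sets are thus unlike. Among the 5 genes, windows with and without a GC box thus occur on both sides, with Ppm1a and Ptprn higher and Ppp1r2, Ppp6c and Ptpra lower.

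In PP1, regulators passed the test and the catalytic subunits did not. None of the 4 probe sets of Ppp1ca, Ppp1cb and Ppp1cc, the interchangeable catalytic chains of PP1, passed in limma, and 1, that of Ppp1ca, had an unadjusted p under 0.05. Ppp1ca gave signals of 17927 and 17346 in G and 24759 and 19514 in MAT-LyLu (0.32 ± 0.13 on the log2 scale, adjusted p = 0.0986), Ppp1cb 18627 and 18079 against 21963 and 20154 (0.20 ± 0.097 on the log2 scale, adjusted p = 0.170), and Ppp1cc 20105 and 18556 against 22608 and 21115 (0.18 ± 0.100 on the log2 scale, adjusted p = 0.226). On these 3 probe sets both MAT-LyLu arrays were above both G arrays. The lines also did not overlap, in either direction, for 67.7% of all tested probe sets. The second probe set of Ppp1cb overlapped between the lines (0.14 ± 0.27 on the log2 scale, adjusted p = 0.729). Other scalings turned these into calls: Ppp1ca passed in 3 of 4 scalings, the first probe set of Ppp1cb in 2 and Ppp1cc in 1, with log2 differences from 0.22 to 0.41. With 1 array left out these 3 probe sets did not pass. Without MAT-LyLu replicate 0, Ppp1ca had a log2 difference of 0.15 (adjusted p = 0.550) and Ppp1cb, on S78218_at, 0.14 (adjusted p = 0.591). Without MAT-LyLu replicate 1, Ppp1ca had 0.49 (adjusted p = 0.0516). S78218_g_at of Ppp1cb changed sign, from -0.29 without MAT-LyLu replicate 0 to 0.57 without MAT-LyLu replicate 1, where it passed (adjusted p = 0.0407).

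Of the 14 tested probe sets of PP1 regulators, 5 were higher, 4 lower and 5 did not pass. The share that passed was 64.3%, against 34.1% over the whole array. Ppp1r2, the gene of inhibitor 2, which binds and inhibits the catalytic subunit, fell 2.52-fold. It gave 12922 and 12665 on the G arrays and 4880 and 5241 on the MAT-LyLu arrays (-1.34 ± 0.084 on the log2 scale, adjusted p = 1.15e-05). The arrays of the lines were far apart for this gene, and its promoter is the one above with 6 GC boxes. The other classical inhibitor gene, Ppp1r1a, encodes inhibitor 1, which acts when protein kinase A has phosphorylated it. Its probe set J05592_g_at gave 3219 and 3074 in G against 1117 and 1387 in MAT-LyLu, at least 1.505-fold lower (-1.33 ± 0.12 on the log2 scale, adjusted p = 8.08e-05). The companion J05592_at, with 2514 and 2262 and 1496 and 1615, was at least 1.14-fold lower (-0.61 ± 0.099 on the log2 scale, adjusted p = 0.00203). It did not pass with signals raised to the background level (adjusted p = 0.405). Both inhibitor genes were therefore lower, with MAT-LyLu under background for Ppp1r1a.

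The targeting subunits went apart. Ppp1r12a, the myosin phosphatase target subunit MYPT1, which brings PP1 to myosin light chain, was higher on all 3 of its probe sets. S74907_at rose 1.38-fold, from 2817 and 2840 to 4022 and 3776 (0.46 ± 0.082 on the log2 scale, adjusted p = 0.00344). U50185_at and U50185_g_at were 1.25-fold and 1.25-fold higher (adjusted p = 0.0265 and 0.0489). U50185_at lost its call without G replicate 1 and without MAT-LyLu replicate 1 (adjusted p up to 0.156), and U50185_g_at in 6 of 15 alternatives, among them those without G replicate 1 and without either MAT-LyLu array (up to 0.235). Ppp1r9b, spinophilin, which ties PP1 to actin, had 13836 and 11707 in G and 8967 and 8833 in MAT-LyLu on AF016252_at, 1.43-fold lower (-0.52 ± 0.10 on the log2 scale, adjusted p = 0.00608). Its other probe set did not pass (log2 difference 0.067 ± 0.091), so the probe sets of this gene differ.

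Smaller rises were those of Ppp1r13l and Ppp1r21. Ppp1r13l, or iASPP, an inhibitor of p53, rose 1.28-fold, from 7092 and 8035 to 9725 and 9634 (adjusted p = 0.0198). Ppp1r21 rose 1.20-fold, from 3664 and 3592 to 4345 and 4362 (adjusted p = 0.0355). The call of Ppp1r13l was lost without G replicate 0, without MAT-LyLu replicate 0 and without MAT-LyLu replicate 1 (adjusted p up to 0.0813), and that of Ppp1r21 with any array left out (up to 0.135). Ppp1r10, the nuclear targeting subunit PNUTS, Ppp1r15a, the stress-induced GADD34 that directs PP1 to eIF2alpha, and Ppp1r16b did not pass, with log2 differences from -0.14 to 0.0019.

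**Figure D3:**
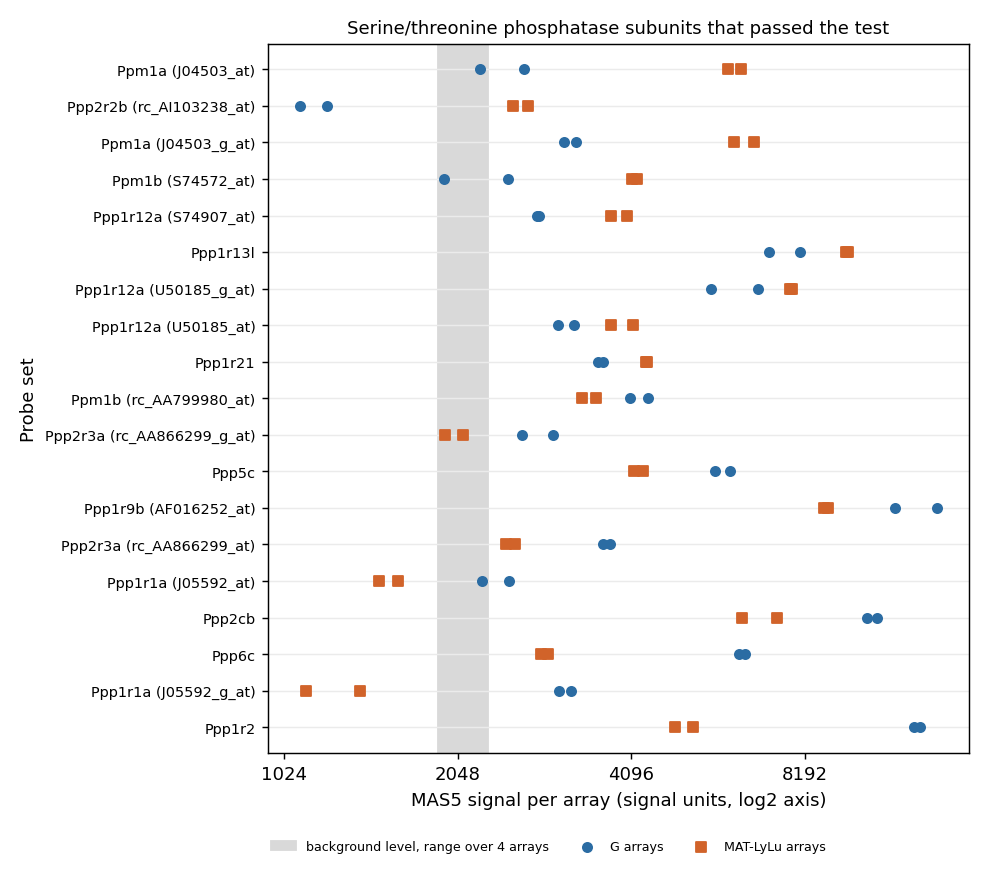
MAS5 signal on each array (horizontal log2 axis, signal units) for the 19 serine/threonine phosphatase probe sets that passed the test, with the G arrays as blue circles and the MAT-LyLu arrays as orange squares. Rows run from the largest rise, Ppm1a, to the largest fall, Ppp1r2, and the grey band is the background level over the 4 arrays. Ppp1r1a lies below the band in MAT-LyLu and Ppp2r2b below it in G.

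PP2A was lower at a catalytic and a regulatory gene, and higher at 1 probe set of another regulatory gene. Of 12 tested probe sets 1 was higher, 3 were lower and 8 did not pass. The share that passed, 33.3%, was near the 34.1% of the whole array. Ppp2cb, the beta catalytic subunit, fell 1.56-fold, from 10887 and 10472 in G to 6370 and 7308 in MAT-LyLu (-0.64 ± 0.096 on the log2 scale, adjusted p = 0.00134). The alpha catalytic subunit was not analysed here. Ppp2r1a, the scaffold that holds the catalytic and regulatory subunits, did not pass on either probe set, with 15362 and 14749 against 17281 and 18145 on D14418_at (0.23 ± 0.091 on the log2 scale, adjusted p = 0.0894) and a log2 difference of 0.047 on the other; D14418_at passed under all 4 other scalings, with log2 differences from 0.28 to 0.34.

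The regulatory B subunits of PP2A, which choose the substrates of the holoenzyme, passed in both directions. Ppp2r3a, of the calcium-binding B'' family, was lower on both probe sets. It gave 3764 and 3652 in G and 2570 and 2487 in MAT-LyLu on rc_AA866299_at, 1.46-fold lower (-0.55 ± 0.081 on the log2 scale, adjusted p = 0.00127), and was 1.39-fold lower on the other (adjusted p = 0.00656), where 1 of the 2 MAT-LyLu arrays was above background. Ppp2r2b, the neuron-rich B beta subunit, rose at least 1.28-fold on rc_AI103238_at, from 1093 and 1215 to 2559 and 2718 (1.18 ± 0.099 on the log2 scale, adjusted p = 5.84e-05). Its other probe set, D14421_at, had 5556 and 6343 and 6502 and 7028 and did not pass (0.19 ± 0.097 on the log2 scale, adjusted p = 0.190). The ubiquitous B alpha gene Ppp2r2a had log2 differences of 0.21, 0.28 and 0.30 on its 3 probe sets, none past the threshold in limma (adjusted p from 0.0565 to 0.116). Under the other scalings it passed, M83298_at and M83298_g_at in all 4 and D14419_s_at in 3, with log2 differences from 0.26 to 0.37. Ppp2r2c and Ppp2r5a, of the B and B56 families, did not pass (log2 differences 0.017 ± 0.095 and -0.13 ± 0.084).

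Calcineurin, the calmodulin-activated phosphatase that dephosphorylates NFAT factors, showed no call among its 4 tested probe sets in limma, where 0 had an unadjusted p under 0.05. The catalytic subunit gene Ppp3ca had 3670 and 3365 in G and 3869 and 3423 in MAT-LyLu (0.050 ± 0.096 on the log2 scale, adjusted p = 0.735), so the lines overlapped. The regulatory subunit gene Ppp3r1 had 7717 and 7734 against 7502 and 7948 on D14568_at (log2 difference -6.6e-04 ± 0.082) and a log2 difference of 0.042 on D14425_s_at. Ppp3r2, a testis form of the regulatory subunit, had 1746 and 1879 against 2050 and 2049, with only the first MAT-LyLu value above background (log2 difference 0.18 ± 0.090). The second catalytic gene, Ppp3cb, was under background on all 4 arrays and not tested.

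Among the remaining PPP enzymes both catalytic genes measured were lower. Ppp6c, the catalytic subunit of PP6, fell 2.19-fold, from 6455 and 6292 to 2934 and 2857 (-1.13 ± 0.079 on the log2 scale, adjusted p = 2.04e-05). Ppp5c, a phosphatase with tetratricopeptide repeats that binds the chaperone Hsp90, fell 1.40-fold, from 6068 and 5721 to 4282 and 4145 (-0.48 ± 0.082 on the log2 scale, adjusted p = 0.00261). Neither gene's arrays overlapped, as for every phosphatase probe set that passed. Both kept their calls in the 15 alternatives that test for any difference, and neither passed when the difference had to exceed 2-fold (adjusted p = 0.933 for Ppp6c and 1 for Ppp5c). Ppp4r3b, a regulatory subunit of PP4, did not pass (log2 difference -0.10 ± 0.096).

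Of the 5 tested PPM probe sets 3 were higher, 1 was lower and 1 did not pass (80% passing, against 34.1% of all tested). Ppm1a, a monomeric enzyme known to act on stress-activated kinases and on Smad proteins, rose 2.52-fold on J04503_at, from 2672 and 2243 to 6350 and 6019 (1.33 ± 0.10 on the log2 scale, adjusted p = 3.70e-05). On J04503_g_at it rose 1.99-fold, from 3283 and 3128 to 6668 and 6159 (1.00 ± 0.085 on the log2 scale, adjusted p = 6.42e-05). The probe sets of Ppm1b, its close relative with several splice forms, disagreed. S74572_at rose 1.88-fold from 1942 and 2500, with 1 of the 2 G arrays above background, to 4184 and 4111 (0.91 ± 0.12 on the log2 scale, adjusted p = 8.16e-04). On rc_AA799980_at the gene was 1.22-fold lower, with 4382 and 4080 against 3563 and 3370 (-0.29 ± 0.085 on the log2 scale, adjusted p = 0.0347). S74572_g_at did not pass (log2 difference 0.062 ± 0.079), and S90449_at was under background and not tested. The lower call was lost under median and trimmed mean scaling and on leaving out G replicate 0 or any MAT-LyLu array (adjusted p up to 0.171), so no single direction can be given for Ppm1b.

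**Figure D4:**
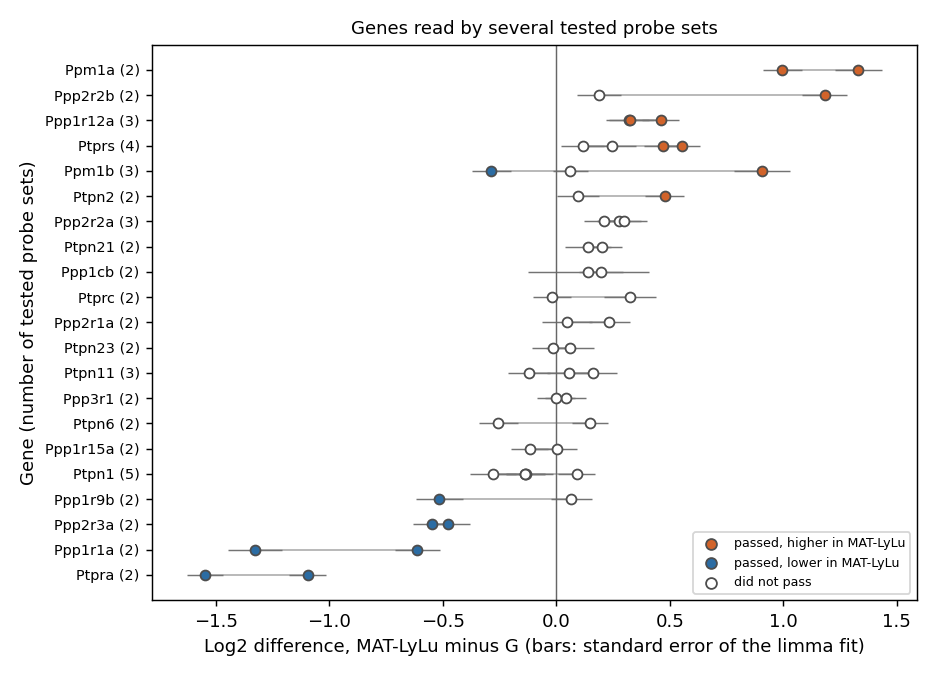
Log2 differences (horizontal axis, MAT-LyLu minus G, with the standard error of the limma fit as bars) of the 21 phosphatase genes read by several tested probe sets, with the number of probe sets after each name. Filled points passed the test and open points did not. Ptpra, Ppp1r1a, Ppp2r3a, Ppp1r12a and Ppm1a passed on every probe set, and Ppm1b passed in both directions.

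Of the 55 tested genes 21 were read by several tested probe sets, which share a transcript and are not independent. All probe sets passed in 1 direction for 5 genes, some did for 4, none did for 11, and 1 gene, Ppm1b, passed in both directions. The sign was the same on all probe sets in 12 of the 21.

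Of the 43 tested tyrosine phosphatase probe sets 11 were higher and 6 lower, and receptors made up 8 of the rises. Without MAT-LyLu replicate 0, and again without MAT-LyLu replicate 1, the falls came to 3. The PRL genes went apart. Ptp4a2, or PRL-2, rose 1.65-fold, from 10512 and 10063 to 16795 and 17226 (0.72 ± 0.087 on the log2 scale, adjusted p = 4.21e-04), whereas Ptp4a1, or PRL-1, fell 1.34-fold, from 16795 and 13922 to 11885 and 10945 (-0.42 ± 0.11 on the log2 scale, adjusted p = 0.0237). The fall of Ptp4a1 lost its call without G replicate 0 and without MAT-LyLu replicate 0 or 1 (adjusted p up to 0.147).

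Of 20 tested probe sets of non-receptor enzymes 2 were higher, 2 lower and 16 did not pass. This is 20% passing, against 34.1% over the whole array, where most probe sets did not pass either. Ptpn12, or PTP-PEST, which dephosphorylates the focal adhesion adaptor p130Cas, rose at least 1.57-fold, from 1749 and 1721, under background, to 3108 and 3356 (0.89 ± 0.088 on the log2 scale, adjusted p = 1.40e-04). Ptpn2, the T-cell phosphatase that acts on Jak and Stat proteins, rose 1.39-fold on X58828_at, from 2289 and 2155 to 3172 and 3031 (0.48 ± 0.086 on the log2 scale, adjusted p = 0.00349). Its other probe set was under background on all 4 arrays (log2 difference 0.095 ± 0.093). Ptpn18 and Ptpn7 were lower, Ptpn18 from 3531 and 3872 to 2879 and 2933 (adjusted p = 0.0167) and Ptpn7, a leukocyte phosphatase of ERK and p38, from 3807 and 3237 to 2811 and 2802 (adjusted p = 0.0406). Both falls lost their call in several alternatives, Ptpn18 in 4 of 15 (adjusted p up to 0.0691) and Ptpn7 in 6 of 15 (up to 0.162). Among these were the runs without either MAT-LyLu array, without G replicate 1 for Ptpn18 and without G replicate 0 for Ptpn7.

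The best known cytosolic enzymes, Ptpn1, Ptpn11 and Ptpn6, did not pass. Ptpn1, or PTP1B, the insulin receptor phosphatase of the endoplasmic reticulum, had 5 tested probe sets with log2 differences from -0.28 to 0.089, and M33962_g_at came nearest, with 10362 and 8889 against 7739 and 8084 (adjusted p = 0.0686). Ptpn11, or SHP2, which carries growth factor signals to Ras, had 5288 and 5835 against 5426 and 6148 on its only probe set above background (log2 difference 0.056 ± 0.098). Ptpn6, or SHP1, of blood cells, had log2 differences of -0.25 and 0.15 on its 2 probe sets. Ptpn23, of endosomal sorting, had 15192 and 13799 against 13993 and 14720 (log2 difference -0.013 ± 0.095). Ptpn5, or STEP, of neurons, did not pass either (log2 difference -0.071), and neither did Ptpn21 (0.14 and 0.20), of which U17971_at passed in 1 of 4 other scalings. SEs of the 16 uncalled non-receptor probe sets ran from 0.080 to 0.12, so differences of this size lie within a few SEs of 0 and are not shown to be absent.

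**Figure D5:**
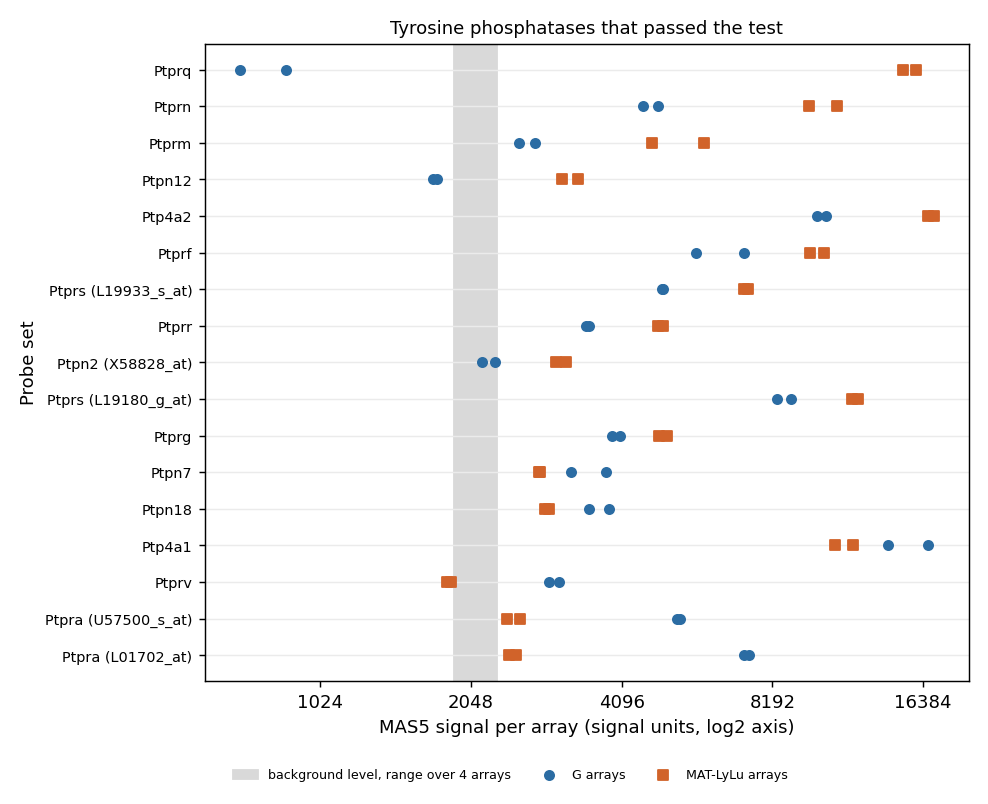
MAS5 signal on each array (horizontal log2 axis, signal units) for the 17 tyrosine phosphatase probe sets that passed the test, with the G arrays as blue circles and the MAT-LyLu arrays as orange squares. Rows run from the largest rise, Ptprq, to the largest fall, Ptpra, and the grey band is the background level over the 4 arrays. Ptprq lies below the band in G, and its MAT-LyLu arrays lie at 15870 and 14937.

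The receptor tyrosine phosphatases held the largest differences of the family in both directions. Of 21 tested probe sets 8 were higher, 3 lower and 10 did not pass (52.4% passing, against 34.1% of all tested). Ptprq rose at least 7.49-fold, from 875 and 706 in G, under background, to 15870 and 14937 in MAT-LyLu (4.26 ± 0.11 on the log2 scale, adjusted p = 1.09e-07). Ptprq encodes a receptor with fibronectin repeats that also acts on phosphoinositides and is known from kidney mesangial cells and from the hair bundles of the inner ear. It was the only phosphatase probe set that was higher when the difference had to exceed 2-fold (adjusted p = 4.24e-07). The other tested genes of its structural group, with 1 catalytic domain behind fibronectin repeats, did not follow. Ptprj, Ptprh and Ptpro stayed short of the threshold, at -0.027, 0.069 and -0.0053 on the log2 scale. Ptprh was under background on all 4 arrays, and Ptprj was above it only on MAT-LyLu replicate 0. The Ptpro value is that of rc_AI136174_s_at, while D45412_s_at and U28938_at of this gene were under background and not tested.

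Ptpra had the largest fall among the receptors tested. The enzyme has a short outer segment and is known to activate Src by removing its inhibitory C-terminal phosphate. L01702_at gave 7356 and 7178 in G and 2516 and 2436 in MAT-LyLu, 2.92-fold lower (-1.55 ± 0.079 on the log2 scale, adjusted p = 3.30e-06). The other probe set, U57500_s_at, gave 5296 and 5364 and 2415 and 2560, 2.14-fold lower (-1.09 ± 0.081 on the log2 scale, adjusted p = 2.93e-05). Both kept their calls in the 15 alternatives that test for any difference. When the difference had to exceed 2-fold, L01702_at passed (adjusted p = 0.00221) and U57500_s_at did not. Its nearest relative Ptpre did not pass on D78613_s_at, with 3097 and 3006 against 3481 and 3089 (log2 difference 0.10 ± 0.091). Src itself, in the list of adaptors and substrates, had 7197 and 7014 against 7055 and 6566 and did not pass (log2 difference -0.062 ± 0.084).

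Of the adhesion-type receptors, Ptprf, Ptprs and Ptprm rose, and Ptpru did not pass. Ptprf, or LAR, with immunoglobulin and fibronectin repeats, rose 1.56-fold, from 7200 and 5776 to 9751 and 10375 (0.64 ± 0.12 on the log2 scale, adjusted p = 0.00377). Ptprs, of the same LAR group and a receptor for proteoglycans, rose on 2 of 4 probe sets, 1.47-fold on L19933_s_at from 4926 and 4958 to 7194 and 7321 (0.55 ± 0.078 on the log2 scale, adjusted p = 0.00105) and 1.39-fold on L19180_g_at (adjusted p = 0.00378). On L19180_at and L11587_at it had log2 differences of 0.12 and 0.24. The third gene of the group, Ptprd, was under background on all 4 arrays. Ptprm, which binds itself between cells at adherens junctions, rose 1.998-fold, from 2754 and 2551 to 5982 and 4714 (1.00 ± 0.12 on the log2 scale, adjusted p = 4.51e-04). Its relative Ptpru had 4436 and 4186 against 4066 and 3389 and did not pass (log2 difference -0.21 ± 0.11). As for every phosphatase probe set that passed, the arrays of the lines did not overlap on those of these genes.

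Ptprn, or IA-2, is a protein of dense-core secretory vesicles that has lost phosphatase activity. It rose 2.21-fold, from 4526 and 4838 to 9685 and 11046 (1.14 ± 0.096 on the log2 scale, adjusted p = 5.92e-05). Its relative Ptprn2 did not pass (log2 difference 0.16 ± 0.088). Of the neuronal marker list, with 10 tested probe sets, Map2 was higher and Nefl lower on 1 probe set each, 10 of 18 probe sets were under background on all 4 arrays, and the summed signal was 41030 to 41935 in G and 42133 to 43480 in MAT-LyLu. The part of neuronal transcripts in the Ptprn value was not tested. Ptprr, which binds MAP kinases through a docking motif, rose 1.40-fold, from 3525 and 3480 to 4949 and 4851 (0.48 ± 0.078 on the log2 scale, adjusted p = 0.00211), while of the enzymes that share this motif Ptpn7 fell and Ptpn5 did not pass, as given above. Ptprg, with a carbonic anhydrase-like outer domain, rose 1.24-fold, from 3925 and 4065 to 4853 and 5049 (adjusted p = 0.0201), and lost its call without G replicate 0 and without MAT-LyLu replicate 0 or 1 (up to 0.108). Ptprz1, the other receptor with this domain, was under background on all 4 arrays. Ptprv, the osteotesticular phosphatase, fell at least 1.43-fold, from 3063 and 2936 to 1864 and 1830, under background (-0.69 ± 0.084 on the log2 scale, adjusted p = 4.51e-04).

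Ptprc, or CD45, the receptor phosphatase of blood cells, did not pass the test. M25823_s_at gave 3285 and 3555 in G and 3382 and 3371 in MAT-LyLu (-0.018 ± 0.084 on the log2 scale, adjusted p = 0.903), M10072mRNA_s_at was under background on all 4 arrays (0.32 ± 0.11 on the log2 scale, adjusted p = 0.0604, passing in 3 of 4 other scalings), and K03039mRNA_s_at was under background with signals up to 121. Of the 14 probe sets of leukocyte markers, 9 were under background on all 4 arrays, among them Itgam, Cd37, Coro1a, Lyz2 and Cd53. Above background on all 4 arrays were Cd8a, with 7097 and 6490 in G and 6601 and 7772 in MAT-LyLu, Cd4, with 3341 and 3644 and 3064 and 3270, 1 probe set of Cd74 and M25823_s_at of Ptprc. None of the 8 tested passed in limma, and 1, M10072mRNA_s_at, had an unadjusted p under 0.05. The list holds the 3 probe sets of Ptprc itself. Its summed signal was 28094 to 28359 in G and 27488 to 28368 in MAT-LyLu.

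Of the 16 phosphatase probe sets left out of the test for their low mean, 5 were serine/threonine and 11 tyrosine, and 7 genes had no tested probe set. These were Ppp1r3b, Ppp1r9a, Ppp1r36, Ppp3cb, Ptpn3, Ptprd and Ptprz1.

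Other genes of the pathways were read from 7 lists. Over the whole array 34.1% of tested probe sets passed. The share was 62.5% for dual-specificity phosphatases, 50% for calcineurin partners and 43.5% for PP1 partners. It was 33.3% for PP2A modifiers, 30% each for adaptors and substrates and for ligands and partners, and 16.7% for other phosphatases. The last 4 lists thus passed no more often than the array. Many, though not all, dual-specificity phosphatases remove phosphates from MAP kinases. In their list 3 of 8 tested probe sets were higher and 2 lower, with a median log2 difference of 0.079. Dusp6, the cytoplasmic ERK phosphatase that ERK itself induces, rose at least 10.3-fold on U42627_at, from 805 and 324 to 21911 and 20525 (5.33 ± 0.34 on the log2 scale, adjusted p = 1.18e-05), and at least 9.37-fold on X94185cds_s_at. Dusp5, a nuclear ERK phosphatase, rose 2.35-fold, from 3456 and 3436 to 8379 and 7841 (1.23 ± 0.082 on the log2 scale, adjusted p = 1.54e-05). Dusp1 was at least 1.05-fold lower on S74351_s_at, from 2161 and 2233 to 978 and 936 (adjusted p = 4.39e-05), and did not pass on its other tested probe set (log2 difference -0.23 ± 0.091). The mitochondrial phosphatase Ptpmt1 fell 1.42-fold.

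Of the PP1 partners outside the Ppp1 symbols, 3 of 23 tested probe sets were higher and 7 lower (median log2 difference -0.097). Myl9, the myosin light chain that myosin phosphatase dephosphorylates, was 3.44-fold lower on S77900_at, and Rock2, the kinase that inhibits myosin phosphatase, rose at least 2.09-fold on U38481_at, from 1938 and 1882 to 4778 and 3860. Pygb, a glycogen phosphorylase, and Akap1, which anchors PP1 at mitochondria, were lower, Akap1 on 2 of its 4 probe sets, and Phka1 was higher. Of the PP2A modifiers, 1 of 6 tested probe sets was higher and 1 lower (median -0.19): the inhibitor Anp32a rose 1.30-fold on D32209_at, while its probe set rc_AI070967_at lay the other way and did not pass (-0.27 ± 0.097 on the log2 scale, adjusted p = 0.0703), and Ensa fell 1.32-fold. Of the calcineurin partners, 1 of 10 was higher and 4 lower (median -0.077), and the 4 were all probe sets of Fkbp1a, the FK506-binding protein, with log2 differences from -1.01 to -0.51. Its relative Fkbp1b rose 1.31-fold.

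Of the other protein phosphatases 2 of 12 tested probe sets were lower in limma (median -0.081), 1 each of Pdp1 and Ilkap. Pdp1, the pyruvate dehydrogenase phosphatase, fell at least 1.40-fold on AF062740_at. Its probe set AF062740_g_at did not pass (-0.28 ± 0.11 on the log2 scale, adjusted p = 0.0797). Ilkap fell 2.20-fold on AF095927_g_at, where the MAT-LyLu arrays lay apart at 5260 and 2890 (SE 0.25). Its probe set AF095927_at did not pass (-0.28 ± 0.093 on the log2 scale, adjusted p = 0.0544). Of the adaptors and substrates of tyrosine phosphatases 5 of 30 were higher and 4 lower (median 0.0034). Pxn, or paxillin, rose 2.91-fold, Cttn, or cortactin, 2.76-fold, and Sos1 1.55-fold on rc_AA892860_at. Ptk2, or focal adhesion kinase, fell 2.03-fold. Of the ligands and partners of receptor phosphatases 3 of 20 were higher and 3 lower (median 0.0046). Ptn, or pleiotrophin, a ligand of Ptprz1, fell 7.32-fold, from 15490 and 13705 to 2128 and 1835, and only the first MAT-LyLu value was above background. Among the syndecans and glypicans, Sdc1 rose 5.05-fold while Gpc1 fell 1.83-fold and Sdc2 1.63-fold. The probe sets of Sdc4 differed. It rose 1.61-fold on S61868_g_at (adjusted p = 0.00108 in limma), while S61868_at and rc_AA800059_at did not pass (log2 differences -0.053 and -0.13).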

How the data were processed

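The deposited values are linear signal intensities per probe set and array. They were made with MAS5, per the submitters' processing notes, an Affymetrix method that summarises each probe set as 1 signal. Version, scaling target and filters: not given in the sources used here. Columns were assigned to the 2 lines from the sample titles. Symbols came from the platform annotation, 7018 probe sets having 1 symbol, 308 several and 1473 none. All 101 phosphatase probe sets matched the GRCr8 RefSeq table with the same symbol. Another 2 probe sets of these families with several symbols were not used. The deposited intensities were used without further scaling. With R 4.3.3 and limma 3.58.1, lmFit and eBayes with an intensity trend were run on log2(signal + 16), 2-sided, over the 6555 probe sets left after 59 controls and the 25% with the lowest mean, with Benjamini-Hochberg adjustment at 0.05. The fit was tested on simulated data. Folds are 2 to the power of the fitted log2 difference. At 2 arrays per line, the test draws its variance largely from the other probe sets.

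Every phosphatase probe set that passed is named, with the catalytic subunits in any case. Of each list the members that passed are named, up to 4 with the smallest p. Phka1 and Sdc4 are named in addition. The members, lists and background level were chosen with earlier results of these data known. Alternatives were the pseudocount (1, 64), the filter (none, 50%), quantile, median and cyclic loess scaling, no intensity trend, the replicate number as a block, leaving out single arrays, signals raised to background, fewer or averaged probe sets, updated symbols and a minimum log2 difference of 1. Scaling to a common 2% trimmed mean was added after seeing the data.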

Additional observations from a re-analysis of the deposited data

How the results depend on the processing

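Of the 36 phosphatase probe sets that passed, 26 kept their call and 0 reversed in those of the 15 alternatives testing for any difference that held the probe set (for 8 of the 36, 14 of the 15, since leaving out the lower 50% removed them). The other 10 are named above with their p-values. Against a minimum log2 difference of 1, the 16th alternative, Ppp1r2, Ptprq and L01702_at of Ptpra passed and the others did not. The serine/threonine count of higher probe sets was 15 with quantile normalization, 15 with cyclic loess and 14 with trimmed mean scaling, in place of 9, and its count of lower probe sets was 6 with the lower 50% left out and 6 with the mean of a gene's probe sets, which tests fewer features, in place of 10. The test against a minimum log2 difference of 1 gave 338 calls over all probe sets, 151 higher and 187 lower, with 0 and 1 (Ppp1r2) in the serine/threonine class and 1 (Ptprq) and 1 (Ptpra) in the tyrosine class. With 1 value per gene, 1453 genes passed and 847 were lower. Leaving out each array in turn gave 6 to 8 serine/threonine probe sets higher, 9 to 10 lower, 10 to 11 tyrosine probe sets higher and 3 to 6 lower, with the 3 found without MAT-LyLu replicate 0 and again without MAT-LyLu replicate 1. The lone array left is then assumed to vary like the pooled spread. Over all probe sets those fits gave 1705 to 2296 calls.

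The median log2 difference of the serine/threonine class, 0.056, was 0.18 with the lower 50% left out, 0.10 with quantile normalization, 0.10 with median scaling, 0.090 with cyclic loess, 0.12 with trimmed mean scaling, 0.032 without probe sets whose names carry a letter before the ending _at and 0.021 with the mean of a gene's probe sets, and it ran from 0.054 to 0.079 with an array left out. That of the tyrosine class, 0.089, was 0.058 with no filter, 0.12 with quantile normalization, 0.13 with median scaling, 0.12 with cyclic loess, 0.16 with trimmed mean scaling and 0.024 with signals raised to background, and it ran from 0.059 to 0.12 with an array left out. The medians stayed above 0 in these runs, and apart from the scaling and filter themselves the cause of the shifts was not tested. The median over all tested probe sets moved with the scaling as well. It was 0.025 with quantile normalization, 0.017 with median scaling, 0.0078 with cyclic loess and 0.038 with trimmed mean scaling, in place of -0.028. The class medians under a scaling are to be read against these values, not against 0.

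The replicate number as a block gave 2388 calls over all probe sets (967 higher, 1421 lower), with 11 higher and 10 lower in the serine/threonine and 12 higher and 7 lower in the tyrosine class. The differences between replicates 0 and 1 of the 2 lines correlated at 0.16 over the tested probe sets, and nothing in the labels pairs the arrays. Signals near the background level limit what can be said of the dim receptors.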

Other observations

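Some phosphatase probe sets that were too dim for the test still had lines that did not overlap. Ppp1r36 gave 352 and 349 in G and 1954 and 1895 in MAT-LyLu, and only the first MAT-LyLu value was above background. D78610_at, a probe set of Ptpre, gave 1036 and 1112 and 1785 and 1786, and that of Ppp3cb 849 and 746 and 1143 and 1487, all under background. Ppp1r9a, the neural relative of spinophilin, gave 1304 and 1371 in G and 919 and 998 in MAT-LyLu, also under background. These 4 were picked after their values were seen, and no fold is given. Ptprd, rc_AA799812_g_at of Ptpn3 and U04998_at of Ptprz1 were untested and did not overlap either.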
